A study of Mus musculus with 16 samples.

Results

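The regions described are 1269 stretches of mouse chromatin that carried trimethylation of histone H3 lysine 4 (H3K4me3) and of lysine 27 (H3K27me3) in the same wild-type cell population, here called bivalent islands. An island is a stretch of the genome in which the authors' peak caller found more reads than elsewhere. Every autosomal wild-type H3K4me3 island that shared at least 1 bp with a wild-type H3K27me3 island was taken, which gave 1269 of 22039 islands, or 5.76% of them. They were touched by 1354 of the 11593 autosomal wild-type H3K27me3 islands. The members were thus chosen by the measured positions of these islands, and the width and read density of both marks in wild type are given as a description and not as a finding.

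The lists come from chromatin immunoprecipitation and sequencing of neural stem cells, which were taken from the telencephalic cortex of mouse embryos at E14.5, grown as neurospheres and plated on Matrigel before fixation in 1% formaldehyde. Wild-type cells were set beside Setd5+/- cells, which are heterozygous for Setd5, and wild-type cells named WT-S5V5 served for precipitation of SETD5 through a V5 tag. The labels give no strain and no cell line or clone for any of the groups. There were 16 samples, of which 13 lists were analysed here, namely 6 histone marks in each of the 2 genotypes and SETD5-V5, with 1 library per group and no replicate, so no difference below has a replicate check and no test was made. The 3 input samples were not analysed here.

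H3K4me3 is laid down by Trithorax-type methyltransferases and lies at active and poised promoters, whereas H3K27me3 is written by Polycomb repressive complex 2 and is found at silent developmental genes. Where both lie over 1 promoter, the gene is usually silent or expressed at a low level in stem cells and can resolve to either mark as cells differentiate. A population assay cannot tell the 2 marks on the same nucleosome from the 2 marks on different alleles or in different cells, and this holds for every bivalent island below.

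The markers of the labelled cell type carried the marks of open promoters. Islands of H3K4me3 and H3K27ac without H3K27me3 lay within 1 kb of the starts of Sox2, Nes, Vim, Fabp7, Hes1, Hes5 and Notch1, and the exception among the 8 neural stem cell markers was Pax6, which had neither H3K4me3 nor H3K27me3 there. All 4 microglial and all 4 endothelial markers had neither of these marks, as did the mesenchymal Col3a1 and Pdgfrb, whereas Col1a1 had H3K4me3. Of the 3 autosomal neuronal markers Tubb3 and Syt1 were bivalent and Rbfox3 had neither mark. Reads within autosomal islands numbered 4537175 for wild-type H3K4me3 and 4969248 for Setd5+/- H3K4me3. For H3K27me3 the islands held 1716115 reads in wild type against 1234686 in Setd5+/- cells, although the Setd5+/- list had more autosomal islands, 15201 against 11593. The part of this gap in the changes of H3K27me3 below was not tested.

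The sequence before the starts of some genes with a bivalent island is shown first. The 6 stretches below are the 250 bases before an annotated start, each lying wholly within the part of the island that carried both marks. Atoh1 and Neurog2 are proneural transcription factors whose islands kept both marks in Setd5+/- cells. The other genes stand for islands that kept H3K4me3 only (Duox2), H3K27me3 only (Crhr1) or neither mark (Tenm4 and Cdkn2a). Sequences are from RefSeq, build GRCm38.p6, written 5′ to 3′ along the gene, with CpG in capitals.
Atoh1, chr6:64728875-64729124, plus strand: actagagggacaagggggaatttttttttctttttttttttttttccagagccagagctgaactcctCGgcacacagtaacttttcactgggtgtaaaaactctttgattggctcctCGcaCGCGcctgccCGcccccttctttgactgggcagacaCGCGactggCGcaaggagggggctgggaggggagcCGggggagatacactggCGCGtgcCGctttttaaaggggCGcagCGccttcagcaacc
Neurog2, chr3:127632886-127633135, plus strand: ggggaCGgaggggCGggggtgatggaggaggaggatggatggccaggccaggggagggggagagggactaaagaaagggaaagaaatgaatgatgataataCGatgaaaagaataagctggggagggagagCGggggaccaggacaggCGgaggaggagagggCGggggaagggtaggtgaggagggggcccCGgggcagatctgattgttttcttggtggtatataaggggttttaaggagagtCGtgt
Duox2, chr2:122298228-122298477, minus strand: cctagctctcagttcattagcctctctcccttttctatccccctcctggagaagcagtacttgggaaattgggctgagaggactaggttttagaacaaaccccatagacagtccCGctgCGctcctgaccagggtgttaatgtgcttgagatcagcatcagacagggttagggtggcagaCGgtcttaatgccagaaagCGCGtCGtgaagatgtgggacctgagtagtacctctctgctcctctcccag
Crhr1, chr11:104132531-104132780, plus strand: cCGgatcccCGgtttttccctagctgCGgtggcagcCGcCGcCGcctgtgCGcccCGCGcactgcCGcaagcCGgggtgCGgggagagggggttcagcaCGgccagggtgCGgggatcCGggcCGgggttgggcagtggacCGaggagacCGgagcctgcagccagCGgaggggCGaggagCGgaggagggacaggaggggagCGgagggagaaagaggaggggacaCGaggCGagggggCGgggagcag
Tenm4, chr7:96211421-96211670, plus strand: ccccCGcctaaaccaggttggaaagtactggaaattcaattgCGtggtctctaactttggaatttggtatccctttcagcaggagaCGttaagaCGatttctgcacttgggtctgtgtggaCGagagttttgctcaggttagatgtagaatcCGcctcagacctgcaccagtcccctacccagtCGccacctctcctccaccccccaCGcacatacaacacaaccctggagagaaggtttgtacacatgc
Cdkn2a, chr4:89282193-89282442, minus strand: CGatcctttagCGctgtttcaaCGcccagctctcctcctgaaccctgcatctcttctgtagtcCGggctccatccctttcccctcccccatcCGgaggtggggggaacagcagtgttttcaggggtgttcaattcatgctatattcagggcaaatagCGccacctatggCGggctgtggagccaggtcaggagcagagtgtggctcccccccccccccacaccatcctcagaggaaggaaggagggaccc
The Crhr1 stretch had 25 CpG and the Atoh1 stretch 14, whereas Neurog2 and Tenm4 had 8 each, Cdkn2a had 7 and Duox2 had 6. Bivalent promoters therefore ranged widely in CpG content even among these examples, and the printed Cdkn2a stretch belongs to the inner of its 2 annotated starts. The printed Tenm4 stretch also lies at an inner start, since the annotated gene begins at chr7:96171244.

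The CpG content of a promoter reached by a bivalent island differed with whether H3K27me3 lay on the promoter itself. RefSeq promoters of 300 bases, from 250 bases before to 50 after the start, were matched for 16457 autosomal genes with 20085 promoters in all. The 267 promoters of 245 genes that touched both a bivalent island and H3K27me3 held a median of 18 CpG. A median of 22 was found in promoters under H3K4me3 without a bivalent island, 11 in promoters under H3K27me3 alone, 3 in promoters with neither mark and 14 over all promoters. At least 10 CpG stood in 80.9% of the bivalent promoters, in 87.9% of those under H3K4me3 without a bivalent island and in 57.9% of all promoters. Bivalent promoters were thus somewhat poorer in CpG than other H3K4me3 promoters. Where the bivalent island reached a promoter but its H3K27me3 ended beside it, in 356 promoters, the median was 24, above the 18 of promoters with H3K27me3 on them.

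Among the bivalent promoters, those that kept both marks in Setd5+/- cells had a median of 19 CpG, those that kept H3K4me3 only 18, those that kept H3K27me3 only 16 and those that kept neither 14. The letters of 4 short motifs were searched on both strands. TATAAA, the core of the TATA box, stood in 10.1% of the 267 bivalent promoters and 12.7% of all promoters. CCAAT stood in 39.3% and 38.1%, and CACGTG, the E-box bound by MYC-type factors, in 6.74% and 7.89%. GGGCGG, the GC box bound by SP factors, which holds a CpG itself, stood in 62.2% of bivalent promoters, 67.3% of H3K4me3 promoters, 44.7% of H3K27me3 promoters and 47.0% of all promoters.

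Bivalent islands were narrow and of low H3K4me3 density. Their H3K4me3 width ran from 0.4 to 25.2 kb with a median of 1.4 kb, and an interquartile range of 1 to 2 kb. Their density ran from 19.3 to 224 reads per kb with a median of 48.8, against a median of 82.5 in the 20770 H3K4me3 islands without H3K27me3, whose median width was 1.6 kb. The 2 marks shared a median of 0.8 kb, or 57.1% of the H3K4me3 island, and the shared stretch ran from 0.2 to 7.8 kb. H3K27me3 islands with H3K4me3 had a median width of 3 kb and 34.4 reads per kb, compared with 2.4 kb and 26.9 reads per kb for the 10239 without. The commonest arrangement was an overlap of edges, in 702 islands. A further 399 lay wholly inside 1 H3K27me3 island, 151 touched several and 17 held an H3K27me3 island within them. Some 128 islands shared their H3K27me3 island with another member, so the members are not fully separate observations.

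At the edge of the rule, 189 members shared only 200 bp with H3K27me3, the width of 1 window of the peak caller. These had a median of 52.1 reads per kb, and the 111 H3K4me3 islands that abutted an H3K27me3 island without overlap, and so fell outside the rule, had a median of 52.5. Members and non-members next to the threshold were thus alike in H3K4me3 density.

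Most bivalent islands lay at genes. A protein-coding gene start lay within 1 kb of 795 of them (62.6%), against 55.8% of all autosomal H3K4me3 islands. Where the annotation gave no strand, the nearer end of the gene stood in for the start. Of the rest, 68 stood beside a long noncoding or microRNA gene (at most 1 kb from its end), 177 inside a protein-coding gene and 229 elsewhere. Islands at a start had a median of 55.7 H3K4me3 reads per kb, above the 41.7 of islands inside genes and the 40.5 of islands elsewhere. With gene starts taken from stranded genes only, 605 islands (47.7%) were at a start.

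Counted by gene, 805 of 20665 autosomal protein-coding genes had a bivalent island within 1 kb of the start, which is 3.9% of them. Shares well above this were found for regulators of development. Of 49 Wnt, BMP, FGF and hedgehog signalling genes 14 were bivalent, and of 72 homeobox regulators outside the Hox clusters 15 were. Of 34 regulators, most of them GATA, T-box or forkhead factors, 8 were bivalent, and of 36 genes of neuronal differentiation and synapses 7 were. Of 22 proneural and neuronal genes, most of them bHLH factors and here called the bHLH list, 4 were bivalent. That list also holds the zinc finger genes Insm1, which is among its bivalent members, and Myt1. These lists also held many genes with H3K27me3 and no H3K4me3, namely 46 of the 72 homeobox regulators and 8 of the 22 genes of the bHLH list.

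**Figure D1:**
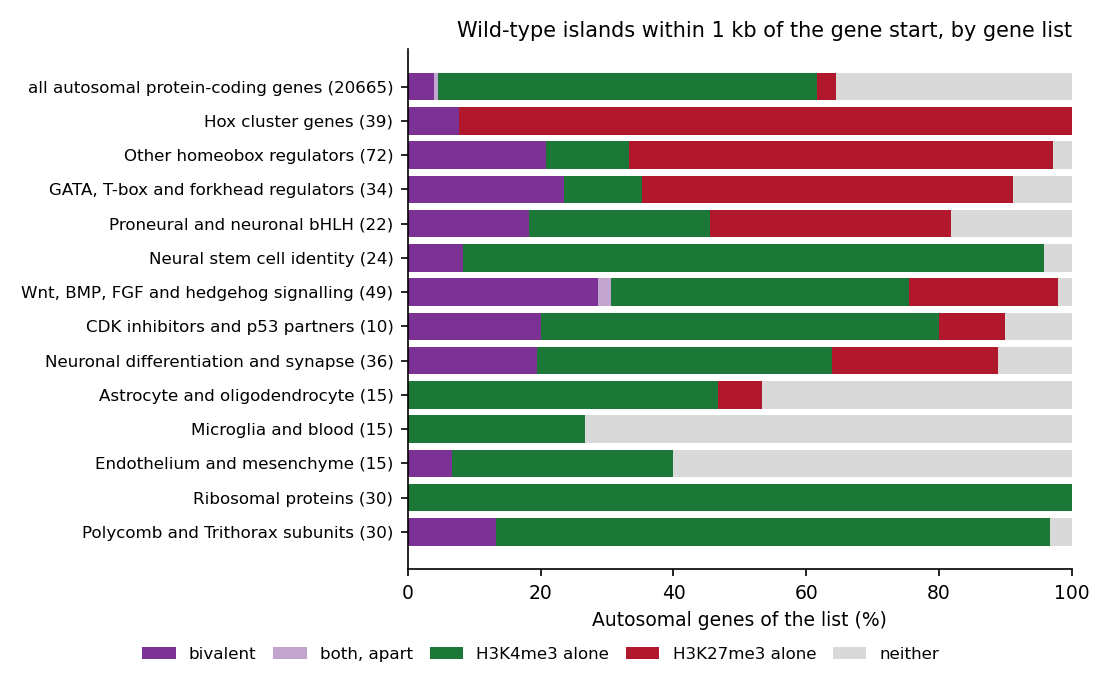
Share of the autosomal genes of each list (x axis, percent) that had a wild-type bivalent island, H3K4me3 and H3K27me3 apart from each other, H3K4me3 alone, H3K27me3 alone or neither within 1 kb of the start, with the number of genes in brackets. The Hox clusters were under H3K27me3 alone at 36 of 39 genes, all 30 ribosomal protein genes had H3K4me3 alone, and the bivalent share was largest in the list of signalling genes.

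Hox genes, the clustered regulators of body axis position, were mostly not bivalent, since 36 of 39 had H3K27me3 alone. Hoxa2 and Hoxa5 were bivalent. None of the 30 ribosomal protein genes and none of 15 astrocyte and oligodendrocyte genes or 15 microglia and blood genes were bivalent, and 1 of 15 endothelial and mesenchymal genes was (Flt1, a VEGF receptor). Of 24 genes of neural stem cell identity, 21 had H3K4me3 without H3K27me3, and 2 were bivalent (Lhx2 and Prom1). Among 30 Polycomb and Trithorax subunits the 4 bivalent ones were Bmi1, Pcgf2, Cbx2 and Cbx8, all of which encode parts of Polycomb repressive complex 1. No gene of complex 2 in that list was bivalent.

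The longest stretch under both marks at a named gene lay at Sp8, a zinc finger transcription factor of forebrain interneuron precursors, on chr12:118846601-118853400. Its H3K4me3 island was 6.8 kb wide with 279 reads, lay wholly inside a 25.4 kb H3K27me3 island with 2512 reads, and carried no H3K27ac. In Setd5+/- cells 51 H3K4me3 reads remained in a 1.4 kb island and 1234 H3K27me3 reads in 22.6 kb. The next longest, 4.8 kb each, were those of Rnf43, a ubiquitin ligase that lowers Wnt receptor levels, and Fgf9, a secreted growth factor. The other 7 of the 10 longest were at Raet1e, Six3, Cdk6, Tenm4, Tmeff2, Mycn and Sp9. They include a kinase that drives the cell cycle (Cdk6), a MYC family factor (Mycn) and a homeobox factor of the anterior forebrain (Six3).

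Raet1e, a ligand of the NKG2D immune receptor, had the densest H3K27me3 of any island that touched H3K4me3, at 192 reads per kb in wild type against 62.4 in Setd5+/- cells. This gene belongs to a family of similar copies, and how the authors placed reads that match several copies is not given in the sources used here, so its values are uncertain.

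At the other end were islands of high H3K4me3 density, most of which shared only a short stretch with H3K27me3. The 5 densest named islands were at Fbxo8 (224 reads per kb), Smu1 (216), Mocs2 (211), Psmb3 (209) and Hmbox1 (204). Their shared stretches were 0.6, 0.2, 0.2, 0.4 and 1.2 kb. Several of these are housekeeping genes, such as the splicing factor Smu1, the proteasome subunit Psmb3 and the molybdenum cofactor enzyme Mocs2. All 5 kept both marks in Setd5+/- cells. For Smu1 and Hmbox1 the annotation used here gave no strand, so the island lies at a gene end that may not be the start. The same holds for some genes named below, among them Zfhx4, Irx5, Cbln2, Shh, Bhlhe22, Kcna1, Calb1, Cacna1a and Cbx2.

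Bivalent islands were poor in marks of activity. H3K27ac, an acetylation of active promoters and enhancers that cannot stand on the same residue as H3K27me3, touched 93 of 1269 (7.33%, 95% Wilson interval 6.02 to 8.89), against 50.2% of all autosomal H3K4me3 islands. H3K4me1, a mark of enhancers and promoter flanks, touched 409 (32.2%), against 58.6%. H3K36me3, laid down along transcribed genes, touched 23 (1.81%) against 12.7%, and H3K36me2 touched 10 (0.788%) against 3.68%. None of the 5 other wild-type lists touched 823 islands (64.9%), compared with 28.9% of H3K4me3 islands without H3K27me3. Wilson intervals here cover counting error only.

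**Figure D2:**
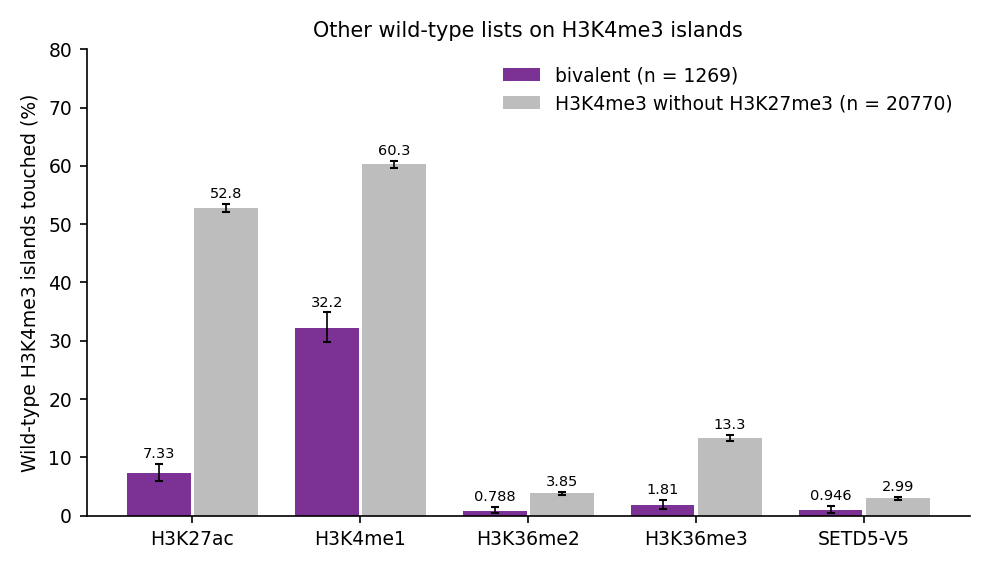
Share of wild-type H3K4me3 islands (y axis, percent) touched by each other wild-type list, for bivalent islands and for islands without H3K27me3; bars are percentages and whiskers 95% Wilson intervals. Every list touched a smaller share of bivalent islands, 7.33% against 52.8% for H3K27ac and 0.946% against 2.99% for SETD5-V5.

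The gap in H3K27ac was also present among islands of like H3K4me3 density. All H3K4me3 islands were split by reads per kb into 4 bins of similar number, of which the upper 3 began at 42.5, 79 and 130.4 reads per kb. From the lowest to the highest bin, H3K27ac touched 1.21%, 0.986%, 14.8% and 73.6% of bivalent islands, and 34.9%, 26.0%, 56.6% and 90.5% of islands without H3K27me3. Bivalent islands with H3K27ac were dense and wide, with a median of 134.5 H3K4me3 reads per kb and 2.6 kb against 46.7 reads per kb and 1.4 kb for the rest. H3K4me1 was also rarer on bivalent islands in all 4 bins. It touched 24.3%, 28.2%, 53.1% and 58.3% of bivalent islands and 60.5%, 44.5%, 60.1% and 75% of the others.

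Within the island, H3K27ac covered less of the part under H3K27me3 than of the rest. It covered 2.51% of the stretch shared by H3K4me3 and H3K27me3 and 12.4% of the remaining part of the same H3K4me3 islands, and touched the shared stretch in 35 of the 93 islands. H3K36me3 covered 0.883% and 4.52%. H3K4me1 covered 25.0% of the shared stretch and 24.4% of the rest, so it did not differ in the same way. The named members with H3K27ac and the longest shared stretches were Rnf43, Cdk6, Zfhx4, Irx5 and Wrap73, whose island also lies at the start of the p53 relative Trp73. At Cdk6 the island of 548 H3K4me3 reads in 5 kb had H3K27ac over part of it in both genotypes.

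SETD5-V5 touched 12 bivalent islands (0.946%, interval 0.542 to 1.65), against 2.87% of all H3K4me3 islands and 1.65% of H3K27me3 islands without H3K4me3. From the lowest to the highest density bin it touched 1.42%, 0.394%, 1.02% and 1.39% of bivalent islands. Of islands without H3K27me3 it touched 1.74%, 0.959%, 2.57% and 6.44%. The bivalent shares rest on 7, 2, 2 and 1 islands, and in the lowest bin the shares were close. Only 3 of the 12 had a named gene start within 1 kb. These were Akirin1, which encodes a nuclear cofactor of transcription, Zfp821, a zinc finger gene, and Aatf, which encodes a regulator of apoptosis and ribosome production, and SETD5-V5 covered 6.67%, 13.3% and 8.33% of their H3K4me3 islands. In the remaining 9 the SETD5-V5 island covered the whole H3K4me3 island. The widest of them, 25.2 kb with 2121 reads on chr8:20407601-20432800, lay 44399 bases from the nearest start, that of the predicted gene Gm15319. Others lay near Chil3, Prl2c3 and Mrgpra3, which belong to families of similar genes, where the placing of 50-base reads is uncertain. Of the 9, Setd5+/- cells kept both marks at 1, H3K27me3 only at 3 and neither at 5, which are too few for a comparison.

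In Setd5+/- cells 659 of the 1269 bivalent islands (51.9%, interval 49.2 to 54.7) kept both marks, where a mark counts as kept if a Setd5+/- island of it touches its wild-type stretch by at least 1 bp. H3K4me3 only was kept at 342 (27%), H3K27me3 only at 163 (12.8%) and neither at 105 (8.27%). H3K4me3 was thus kept at 1001 (78.9%), against 88.6% of all autosomal H3K4me3 islands. H3K27me3 was kept at 822 (64.8%), where any touching H3K27me3 island sufficed. Counted by H3K27me3 island, 62.9% of the 1354 with H3K4me3 were kept, against 52.2% of the 10239 without it and 53.4% of all autosomal H3K27me3 islands. Relative to the whole list of each mark, the share of bivalent islands that kept H3K4me3 was lower and the share that kept H3K27me3 higher.

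These shares depend on what counts as kept. When the Setd5+/- island had to touch the shared stretch itself, both marks were kept at 516 (40.7%) and neither at 178 (14.0%). When it had to cover at least 50% of the wild-type stretch, both were kept at 524 (41.3%). In 680 of the 822 islands that kept H3K27me3, the Setd5+/- H3K27me3 lay on the H3K4me3 island. A Setd5+/- H3K4me3 island still overlapped a Setd5+/- H3K27me3 island at 539 members (42.5%). Of 22614 autosomal Setd5+/- H3K4me3 islands 842 were bivalent in those cells, and 538 of the 842 touched a wild-type bivalent island.

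**Figure D3:**
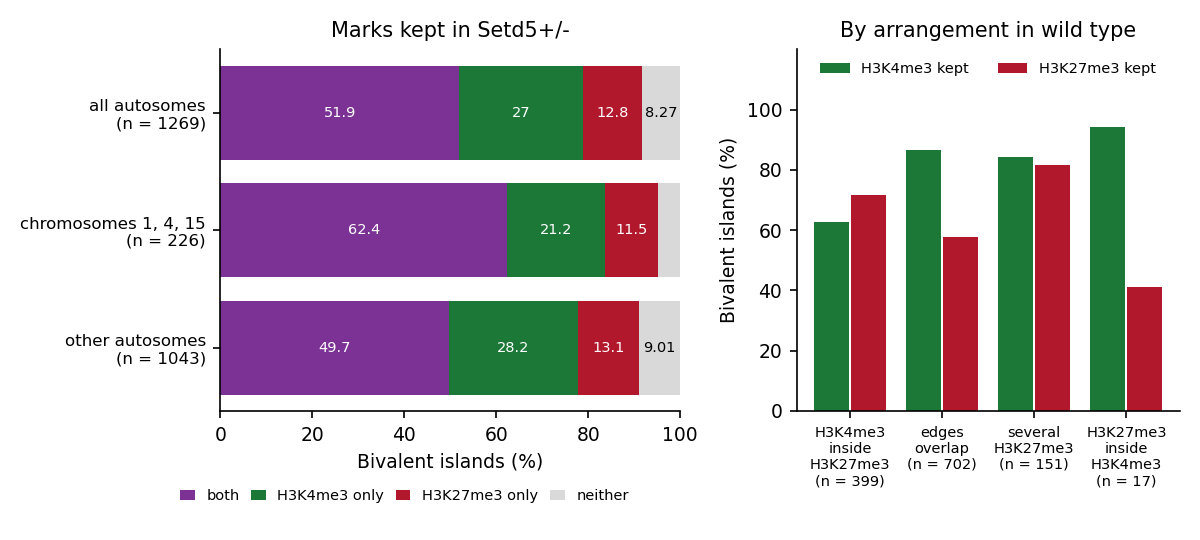
Left, share of bivalent islands (x axis, percent) that kept both marks, 1 or neither in Setd5+/- cells, over all autosomes, on chromosomes 1, 4 and 15, and on the other autosomes. Right, share that kept H3K4me3 and H3K27me3 (y axis, percent) by the arrangement of the wild-type islands; H3K4me3 islands wholly inside H3K27me3 kept H3K4me3 at 62.7% and H3K27me3 at 71.7%, and the order was the other way round where edges overlapped (86.6% and 57.8%).

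Which mark was kept went with the shape of the wild-type islands. Islands that kept only H3K27me3 had a median of 35 H3K4me3 reads in 1 kb within H3K27me3 of 5.4 kb, and 46.6% of them were at a gene start. Those that kept only H3K4me3 had 77 reads in 1.4 kb with H3K27me3 of 2 kb, and 63.2% were at a start. Those that kept both had 91 reads in 1.6 kb with H3K27me3 of 4.6 kb. The 105 that kept neither had 38 reads in 1 kb and H3K27me3 of 2.4 kb. Long H3K27me3 thus stood with kept H3K27me3, and more H3K4me3 reads stood with kept H3K4me3. Since 1 bp anywhere on the wild-type stretch counts as kept, the rule favours long stretches by construction. How much of the link between length and kept H3K27me3 comes from the rule was not tested.

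Set beside islands of like size, bivalent islands differed less from the rest. H3K4me3 was kept at 63.0%, 83.8%, 98.5% and 100% of bivalent islands from the lowest to the highest of the 4 density bins, and at 69.2%, 87.0%, 98.6% and 99.9% of the others. Of the members 494 lay in the lowest bin and 72 in the highest. H3K27me3 islands of 2 to 3.8 kb were kept at 58.5% with H3K4me3 and 48.4% without. Those of 4 to 7.8 kb were kept at 82.6% and 78.1%, and those of 8 kb or more at 87.9% and 93.0%. The higher share of kept H3K27me3 in bivalent islands was therefore seen in the middle widths and not in the narrowest or the widest.

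**Figure D4:**
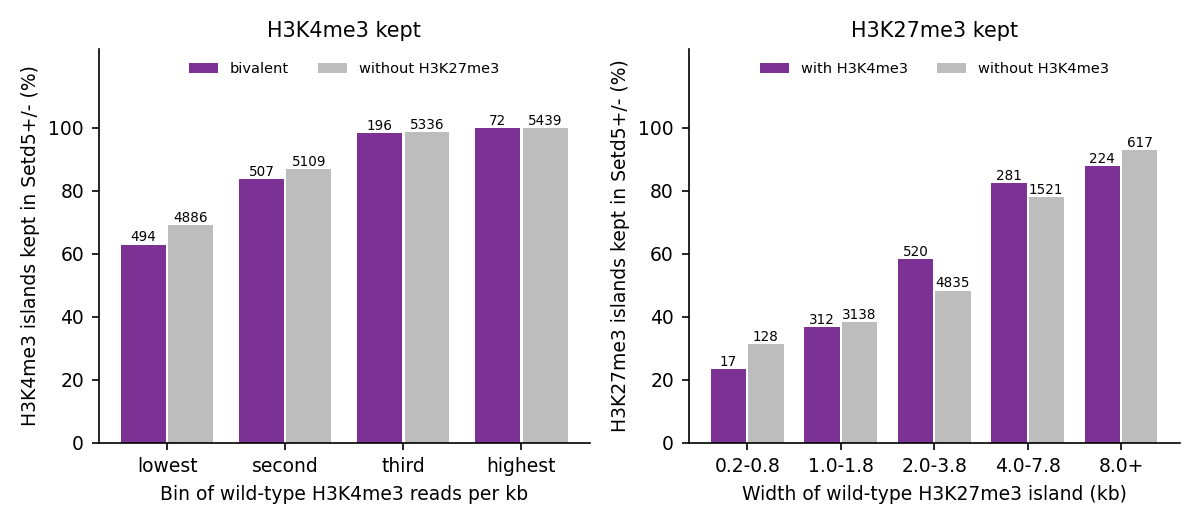
Left, share of wild-type H3K4me3 islands kept in Setd5+/- cells (y axis, percent) in 4 bins of wild-type reads per kb; right, share of wild-type H3K27me3 islands kept by their width in kb, with the number of islands above each bar. Purple bars are islands that carry the other mark and grey bars those that do not; both shares climb with size, from 63.0% to 100% for H3K4me3 of bivalent islands.

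The share of islands that kept both marks differed between chromosomes. On chromosomes 1, 4 and 15 pooled, 226 bivalent islands kept both at 62.4%, and the 1043 on the other autosomes at 49.7%. Within the pool the share was 71.1% on chromosome 1, 65.3% of 49 islands on chromosome 15 and 51.7% on chromosome 4, close to the 51.9% of all members, while chromosomes 10 and 12 outside it had 61.7% and 59.7%. The share that kept H3K27me3 was 82.2% on chromosome 1 and 62.8% on the autosomes other than 1, 4 and 15. Among the chromosomes with at least 50 bivalent islands the share that kept both ran from 41.8% on chromosomes 5 and 8 to 71.1% on chromosome 1. The median relative log2 density ratio of kept H3K27me3, described next, was 0.19 at the bivalent islands of chromosome 1, −0.26 on chromosome 4, −0.16 on chromosome 15 and −0.21 at those of the autosomes other than 1, 4 and 15. These 3 chromosomes were singled out because earlier results of the same lists showed more signal on them in the Setd5+/- libraries.

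Where a mark was kept, its density changed little. Density ratios are log2 of Setd5+/- over wild-type reads per kb, relative to the median of kept islands outside chromosomes 1, 4 and 15, which lay at 0.07 for H3K4me3 and −0.19 for H3K27me3 before this step. For H3K4me3 the median over 1001 bivalent islands was 0.07, with an interquartile range of −0.20 to 0.37, and that of the others 0.02. It was 0.19 in islands that kept H3K4me3 only and 0.01 in those that kept both. For H3K27me3 the median over 822 bivalent islands was −0.17, with an interquartile range of −0.48 to 0.14, against 0.07 in H3K27me3 islands without H3K4me3. Both medians are small beside the spread over islands, and without replicates their error is unknown.

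Changes beyond 2-fold were few. H3K4me3 was at least 2-fold denser in Setd5+/- cells at 35 of the 1001 (3.5%), where 1.25% of all kept H3K4me3 islands were, and at least 2-fold less dense at 13 (1.30%), where 0.799% were. H3K27me3 was at least 2-fold less dense at 22 of 822 (2.68%), where 1.37% of kept H3K27me3 islands were, and at least 2-fold denser at 1, where 0.84% were. Sp9 and Ebf1, both listed below, are among the islands with denser H3K4me3. Bivalent islands held a median of 67 wild-type H3K4me3 reads, against 127 over all autosomal H3K4me3 islands. The 2-fold shares of H3K4me3 were not matched for read number or density. The part of lower counts in them was not tested.

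Among the genes whose island kept H3K4me3 only, Sp9, an Sp family factor of interneuron precursors, had the longest shared stretch. Its island on chr2:73271801-73275200 held 182 reads in 3.4 kb in wild type and 553 reads in 3.6 kb in Setd5+/- cells, a relative log2 ratio of 1.45. The wild-type H3K27me3 island over it held 826 reads in 10.4 kb, and no Setd5+/- island touched it. Ebf1, a transcription factor of neuronal and B cell differentiation, went from 107 H3K4me3 reads in 2.2 kb to 334 in 2.6 kb, and its 21.6 kb of H3K27me3 with 1331 reads had no Setd5+/- island. The other 3 of the 5 named were Duox2, an oxidase that makes hydrogen peroxide, Irx5, a homeobox factor, and Efna3, a membrane-bound ligand of Eph receptors. Of these, Irx5 had the most H3K4me3 reads, 735 in wild type against 1016 in Setd5+/- cells, and H3K27ac in both.

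The genes whose island kept H3K27me3 only were led by Cbln2, a secreted organiser of synapses, with 193 H3K4me3 reads in 3.4 kb in wild type and no Setd5+/- H3K4me3 island. Its H3K27me3 went from 130 reads in 3.8 kb to 225 in 6.4 kb. At Barhl2, a homeobox factor of retina and diencephalon, 219 H3K4me3 reads in 3 kb had no counterpart, and H3K27me3 of 24.8 kb with 1529 reads became 26 kb with 1098 reads. Dkk2, which encodes a secreted modulator of Wnt signalling, and Crhr1, which encodes a receptor for corticotropin-releasing hormone, had 98 and 64 wild-type H3K4me3 reads. Their islands were sparse, at 40.8 and 35.6 reads per kb.

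At Tenm4, an adhesion protein of neurons, the bivalent island lay at an inner start, downstream of chr7:96171244, where the annotated gene begins. Neither mark was kept there, where 170 H3K4me3 reads in 3.8 kb lay inside 13 kb of H3K27me3 with 550 reads. The same held at Tmem132e, a membrane protein gene with 93 H3K4me3 reads, at Cgas, the sensor of cytosolic DNA, with 177, and at Adarb2, a relative of RNA-editing enzymes, with 60. Cgas had an H3K4me3 island upstream of this one that was present in both genotypes.

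**Figure D5:**
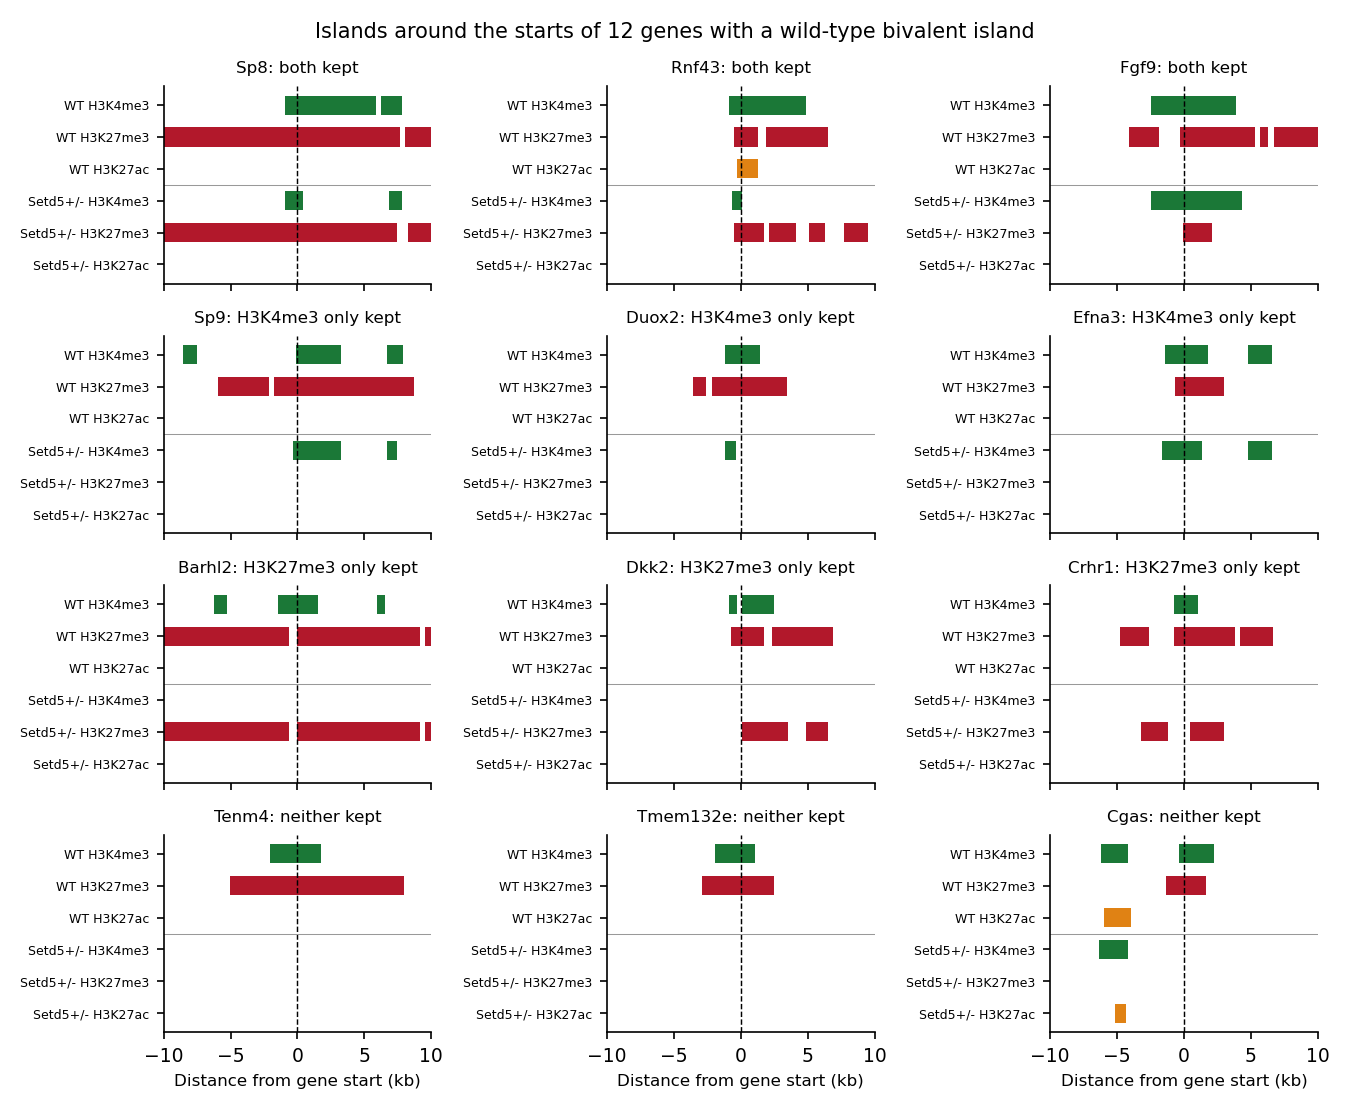
Islands of H3K4me3 (green), H3K27me3 (red) and H3K27ac (orange) within 10 kb of an annotated start (x axis, distance in kb along the direction of the gene) for 12 genes, with wild type above the grey line and Setd5+/- below it. Each row of panels is 1 class of kept marks, and the 3 genes of a row are those of the class with the longest shared stretches at stranded starts; in the bottom row neither mark of the bivalent island has a Setd5+/- island.

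Genes of single pathways did not share 1 outcome, and neither did bivalent genes as a whole. Of all 805 genes with a bivalent island, 464 kept both marks, 220 H3K4me3 only, 71 H3K27me3 only and 50 neither. The list counts here and below stand beside that split. Of the 14 bivalent signalling genes 8 kept both marks, 4 kept H3K4me3 only, 1 kept H3K27me3 only and 1 kept neither, close to the split of all bivalent genes. Shh, the hedgehog ligand, kept both, with 118 H3K4me3 reads in 3 kb in wild type against 69 in 2 kb in Setd5+/- cells. Its H3K27me3 was 13.4 and 9.2 kb wide. Wnt11 had 198 and 196 H3K4me3 reads and 139 and 69 H3K27me3 reads in 3.2 and 2.8 kb, so its H3K4me3 was close in the 2 genotypes and its H3K27me3 was less dense in Setd5+/- cells. Fgf10, a growth factor of limb and lung buds, had 55 H3K4me3 reads in 1.8 kb in wild type against 23 in 0.6 kb in Setd5+/- cells, with H3K27me3 of 14.6 and 13.4 kb.

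Of the 15 bivalent homeobox genes outside the Hox clusters, 8 kept both marks, 6 kept H3K4me3 only and 1, Barhl2, kept H3K27me3 only. Six3 had 117 H3K4me3 reads in 4.2 kb in wild type against 163 in 1.8 kb in Setd5+/- cells, while its H3K27me3 went from 29.6 kb to 6.2 kb. Gsx1, a factor of the ventral telencephalon, had 192 and 135 H3K4me3 reads and H3K27me3 of 9.8 and 6.6 kb. Dlx1 and Dlx2, which specify interneurons, were also bivalent in wild type. At Dlx1 38 H3K4me3 reads in 0.8 kb became 362 in 2.6 kb, with H3K27ac over the whole wild-type island in Setd5+/- cells only.

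Among the factors of cortical neurogenesis, Eomes, which marks intermediate progenitors, kept both marks with 167 and 342 H3K4me3 reads in 3 kb in each genotype and 448 and 157 H3K27me3 reads. Tbr1, a factor of deep-layer neurons, kept H3K4me3 only, with 117 reads in 1.8 kb in wild type against 87 in 1 kb in Setd5+/- cells. Its density was thus higher in Setd5+/- cells, at a relative log2 ratio of 0.35. Neurog2, which drives glutamatergic neurogenesis, kept both but with 151 H3K4me3 reads in wild type against 45 in Setd5+/- cells, and its H3K27me3 was 13 kb wide in wild type against 26 kb in Setd5+/- cells. Atoh1 had 53 and 63 H3K4me3 reads and Bhlhe22, a bHLH factor of cortical neurons, had 30 and none. Gata3, a factor of T cells and sympathetic neurons, had 168 and 287 H3K4me3 reads and H3K27me3 of 35.6 and 15.4 kb. Of the 4 bivalent genes of the bHLH list 3 kept both marks, among them the zinc finger gene Insm1, and Bhlhe22 kept H3K27me3 only.

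In the neuronal list, Tubb3, the neuronal tubulin, kept H3K4me3 only, with 29 reads in 1 kb in wild type against 78 in 1.4 kb in Setd5+/- cells. Kcna1, a potassium channel gene, kept both with 61 and 53 reads, and Calb1, which encodes a calcium-binding protein, had 24 and none. All 3 were sparse in wild type, at 29.0 to 30.5 reads per kb. In the stem cell list Prom1, a membrane glycoprotein, kept both marks. It had 128 H3K4me3 reads in 1.4 kb in wild type against 90 in 1 kb in Setd5+/- cells, or 91.4 and 90 reads per kb. Lhx2 kept H3K4me3 only, with 129 reads in 1.8 kb and 169 in 2 kb. Of the Polycomb genes Bmi1, Pcgf2 and Cbx2 kept both, and Cbx8 kept H3K4me3 only, with 322 and 311 reads and H3K27ac over 69.2% of the island in Setd5+/- cells only.

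Of the Hox genes, Hoxa5 kept both, with 62 H3K4me3 reads in wild type against 474 in Setd5+/- cells, the largest relative log2 ratio of any kept bivalent island at 2.33, and its H3K27me3 island went from 68.2 kb with 8510 reads to 36.2 kb with 2011 reads. Hoxa2 kept neither mark.

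Cdkn2a, which encodes the cell cycle inhibitors p16 and p19ARF from separate starts, had 3 bivalent islands on 1 H3K27me3 island of 28.4 kb with 1906 reads, and no Setd5+/- H3K27me3 island touched that one. The island at the inner start, on chr4:89281401-89283000, had 105 H3K4me3 reads and no Setd5+/- counterpart. The other 2, of 67 reads in 1.2 kb and 368 reads in 3.2 kb, kept H3K4me3 only and were touched by a single Setd5+/- H3K4me3 island of 1211 reads in 10.4 kb. H3K27ac covered 100% of the 67-read island in Setd5+/- cells and was absent from it in wild type. Chromosome 4 is among the chromosomes with more Setd5+/- signal, and the part of this in these values was not tested.

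H3K27ac appeared in Setd5+/- cells at 43 of the 1176 bivalent islands that lacked it in wild type (3.66%), where 13.3% of all such H3K4me3 islands did. It was no longer listed at 36 of the 93 that had it (38.7%), where 20.5% were. Of the 43, 14 lay on chromosomes 1, 4 and 15, which held 226 of the 1269 bivalent islands. The part of the higher Setd5+/- signal on these chromosomes in the new H3K27ac was not tested. In islands that kept H3K4me3 only, H3K27ac touched 21 in wild type against 39 in Setd5+/- cells. In islands that kept both marks it touched 70 and 60. Genes with H3K27ac over the whole island in Setd5+/- cells only were Sulf1, which encodes an extracellular sulfatase, Dlx1, Smu1 and En2, a homeobox factor of the midbrain. Of these, Sulf1 lies on chromosome 1 and Smu1 on chromosome 4. The gain was partial at Hmga2, a chromatin protein of stem cells (92.0% of the island), Isl2, a factor of motor neurons (75%), and Bdnf, a neurotrophin (44.4% and 25.0% of its 2 islands).

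Some microRNA genes lay at the members. Of 919 autosomal hairpins 175 lay within 1 kb of any H3K4me3 island, and 10 within 1 kb of a bivalent one. Bivalent islands made up 5.76% of all autosomal H3K4me3 islands, so hairpins were neither rare nor common among them. The best known are the neuronal miR-137 and miR-129 and miR-449c, whose seed is that of the miR-34 family. Mature sequences are from RefSeq, build GRCm38.p6, with the seed, bases 2 to 8, in capitals.
mmu-miR-137-3p: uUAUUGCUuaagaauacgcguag
mmu-miR-129-5p: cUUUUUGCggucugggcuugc
mmu-miR-449c-5p: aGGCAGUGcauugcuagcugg
These 3 seeds differ from each other. Mir137, on chr3:118433857-118433929, lay under an island of 125 H3K4me3 reads in 2.2 kb within 36.4 kb of H3K27me3 with 2317 reads. In Setd5+/- cells its H3K4me3 island had 116 reads in 1.6 kb, while 46 H3K27me3 reads in 1.6 kb were left. Mir129-2, on chr2:94241364-94241453, had 101 H3K4me3 reads in 1.6 kb in wild type and 134 in 2.6 kb in Setd5+/- cells. Its H3K27me3 had 201 reads in 5 kb and 173 in 5.6 kb. Mir129b lies antisense over the same hairpin and shares the island. Mir449c had 122 H3K4me3 reads in 1.4 kb in wild type and 110 in 1.6 kb in Setd5+/- cells. Its H3K27me3 had 307 reads in 7.8 kb and 381 in 11.6 kb. Among the other hairpins, Mir6546, Mir3080 and Gm51288 kept H3K4me3 only, with 87, 82 and 45 wild-type H3K27me3 reads and no Setd5+/- H3K27me3 island.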

How the data were processed

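Island lists of 13 chromatin immunoprecipitation libraries were used, each with the chromosome, start, end and read count of every island. These counts are whole reads per island as deposited by the authors, not normalized. The submitters' processing notes name FastQC, Bowtie2 2.2.3, the GRCm38/mm10 build and the island caller SICER 1.1. According to the file headers, the 5 lists of H3K36me2, H3K36me3 and SETD5-V5 used windows of 800 bp, gaps of 2400 bp and an FDR of 0.01. The headers of the other 8 give no settings, and in them every start lay on a 200 bp grid. The use of the inputs and the size of each library are not given here, so depth is known only as reads within islands.

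Islands were intersected with Python 3.11.15, numpy 2.4.6 and pandas 2.3.3, and the scripts were tested on simulated data. Coordinates are 1-based. A density is reads per kb of island. With 1 library per group no test was run, so percentages, medians and 95% intervals (Wilson for shares) stand beside the same value over all islands. Gene starts came from RefSeq GRCm38.p6, with strand for 17492 of 21887 protein-coding genes and both gene ends for 4395. An island's gene is the protein-coding gene with the nearest start within 1 kb, predicted genes skipped. Named genes are the 10 islands with the longest shared stretch, the 5 with most H3K4me3 reads per kb, the 5 with the longest shared stretch in each class of kept marks and among those with SETD5-V5 or H3K27ac, and up to 4 members of each of 13 gene lists. Some genes that this rule picks are not reported here. Dlx1, Dlx2, Raet1e's density, the genes with new H3K27ac, Cdkn2a's other islands and the microRNAs were singled out after their values were seen. The members and gene lists were chosen with earlier results of these data known. Alternatives changed the overlap, the density minimum, the covered length, the definition of a kept mark, the distance to a start and the chromosomes used.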

Additional observations from a re-analysis of the deposited data

How the results depend on the processing

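With 1 library per group there is no replicate to leave out and no threshold to cross, so an alternative was judged by whether it moved a value beyond its 95% counting interval, or a count beyond 1.5 times. Of 86 recomputed values 52 stayed within it and 34 moved, and none of the medians changed sign. Without chromosomes 1, 4 and 15 no value moved. Requiring 50% of the H3K4me3 island under H3K27me3 left 733 islands of median width 1.2 kb, 43 reads per kb and 1 kb shared. A gene start then lay within 1 kb of 56.6%, H3K27ac touched 1.77%, H3K4me1 29.3% and H3K36me3 0.136%, and H3K4me3 only was kept at 19%, H3K27me3 only at 18.8% and neither at 11.1%, with a median log2 ratio of H3K27me3 of −0.26. Requiring 400 bp shared, H3K36me3 touched 1.2% and H3K4me3 only was kept at 24.5%. Leaving out the least dense 25% of each list, which raises density by construction, left 708 islands of 1.6 kb and 65 reads per kb, with a gene start at 69.5%, H3K4me1 at 23.3% and a median log2 ratio of H3K27me3 of −0.094. At equal covered length of the genotypes both marks were kept at 48.6% and H3K27me3 only at 16.9%. Where the Setd5+/- island had to touch the shared stretch, both were kept at 40.7%, H3K4me3 only at 32.9% and neither at 14.0%; where it had to cover 50% of the wild-type stretch, at 41.3%, 35.5% and 11.6%. With 50% of the H3K4me3 island under the other mark, H3K27ac counted at 4.73%, H3K4me1 at 24.3% and H3K36me3 at 0.867%. A gene start lay inside 53% of islands and within 5 kb of 70.9%, and counting starts of stranded genes only, chosen after seeing the data, gave 47.7%. Apart from what each definition does by construction, the cause of these shifts was not tested.

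No paired analysis was possible because each group holds 1 library. The size of each library is unknown here, so no lower limit of detection was set for a mark that a list lacks.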

Other observations

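Genes that share a name prefix were counted after the values were seen, as a description. Of 274 prefixes with at least 10 autosomal genes, 160 had no bivalent gene. The largest bivalent share was that of the voltage-gated calcium channel genes, 7 of 13 with the prefix Cacna, among them Cacna1a, Cacna1c, Cacna1d, Cacna1e and Cacna1g. Of these 7, Cacna1e kept both marks, Cacna1a, Cacna1c and Cacna1g kept H3K4me3 only, Cacna2d1 and Cacna2d2 kept H3K27me3 only and Cacna1d kept neither. Wnt ligand genes followed with 6 of 19 and genes with the heat shock protein prefix Hspa with 4 of 13. Fibroblast growth factor genes, with 6 of 20, had the same share as the prefixes Arid and Dock, each with 3 of 10. Among the cadherins 5 of 23 were bivalent, and Cdh1, Cdh3 and Cdh9 kept neither mark whereas Cdh6 and Cdh11 kept both. Neighbouring genes of a family can share 1 island, as Hspa1a, Hspa1b and Hspa1l lie side by side, so these counts are not of independent islands.

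A small number of members lay in most of the lists. Of the 1269 islands, 25 were touched by islands of at least 8 of the 13 lists, and the highest number, 11, was reached at Rgs16, a regulator of G protein signalling, whose island held 722 reads in 4 kb. Sema5b, Glo1 and Tle1 followed with 10 lists each. Most of these 25 were dense H3K4me3 islands with a short shared stretch, such as Nop58 with 178 reads per kb and 0.2 kb shared. At the other end, 92 islands were touched by no list beyond the 2 that define them. The same counts were not made over all H3K4me3 islands, so neither can be called high or low.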
